A study of Mus musculus with 4 samples.

Results

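Barcodes whose RNA was to a large part mitochondrial were described in single-cell RNA-seq of mouse cortex. A droplet barcode entered this set when 200 to 7000 genes were detected and more than 20% of its UMIs (unique molecular identifiers, one per captured RNA molecule) lay in genes with an mt- symbol, so the members were selected on a measured value. Of 5585 barcodes with 200 to 7000 genes, 750 (13.4%) passed, and the other 4835 served as the comparison. The series holds 4 Drop-seq libraries, each from cortices of 9 mice pooled at 24 weeks of age. They are a female WT, a female Tg2576, a male WT and a male Tg2576 pool. Tg2576 mice carry a human APP transgene with the Swedish double mutation in the heterozygous state on a B6;SJL background, and WT mice are their littermates without it. Since a pool was sequenced once, mice within it cannot be told apart, and a difference between libraries has no replicate of its own. The comparison of members with the other barcodes was made within each library, so that both classes shared the animals, the dissociation and the sequencing run.

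The mitochondrial genome is transcribed inside the organelle into 2 ribosomal RNAs, a set of transfer RNAs and messenger RNAs for subunits of the respiratory chain, while nearly all other mitochondrial proteins are encoded in the nucleus. The mitochondrial share of a barcode is the usual quality measure of single-cell studies, since a cell with a torn membrane can lose cytosolic RNA and keep the RNA enclosed in organelles. Neurons and astrocytes are also known for a high mitochondrial content, so a fixed limit need not act alike on all cell types of the brain.

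Members were frequent in the female pools and rare in the male pools. In the female WT library 234 of 1278 barcodes (18.3%, exact Clopper-Pearson 95% interval 16.2 to 20.5) lay above the limit, and in the female Tg2576 library 397 of 1646 (24.1%, 22.1 to 26.3). The male WT library held 73 of 1083 (6.74%, 5.32 to 8.40) and the male Tg2576 library 46 of 1578 (2.92%, 2.14 to 3.87). None of the 4 intervals overlapped. These intervals cover counting error only, and sex, genotype, pool and library preparation cannot be told apart with 1 library for each combination.

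**Figure D1:**
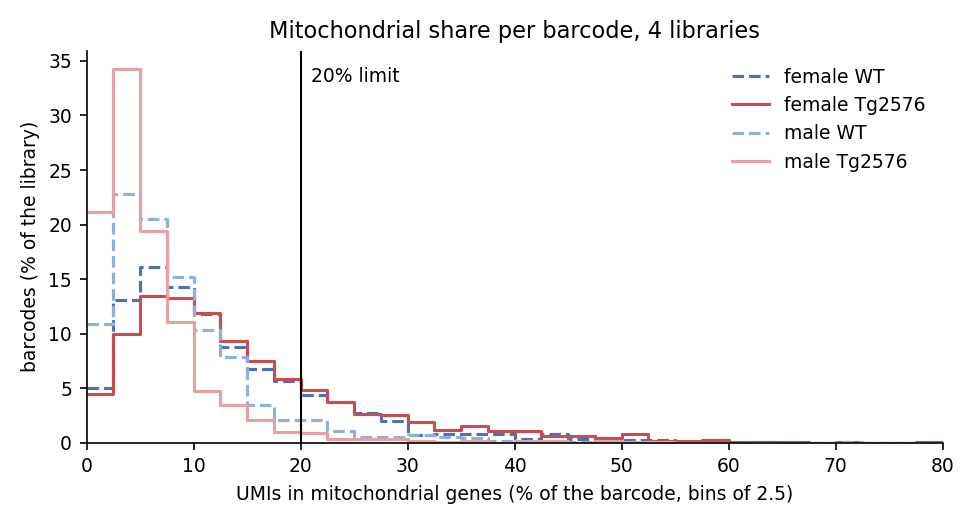
Distribution of the mitochondrial share over barcodes with 200 to 7000 genes. The horizontal axis gives the percent of a barcode's UMIs in mt- genes in bins of 2.5, the vertical axis the percent of the library's barcodes, and each line is 1 library. The shares formed 1 continuous tail in every library, without a second peak at the 20% limit, and the female libraries reached further to the right than the male ones.

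Most members lay close to the limit. The median mitochondrial share of the members was 26.2% in female WT, 28.1% in female Tg2576, 25.5% in male WT and 26.98% in male Tg2576, against 8.77%, 9.35%, 6.64% and 4.41% in the other barcodes. Of the 750 members, 469 had at most 30%, 158 had 30 to 40% and 123 had more than 40%, and the highest share was 78.0%. Just under the limit, the 163 barcodes at 18 to 20% had a median of 776 non-mitochondrial UMIs and 43.6% of them were astrocyte-like. Just above it, the 136 barcodes at 20 to 22% had a median of 593.5 and 40.4% were astrocyte-like, and endothelial-like barcodes were 19.02% below and 20.6% above. Of the 27 barcode sequences deposited in more than 1 library, 6 were kept in more than 1, and none of these 6 was a member. Of the 750 members 22 were called doublets.

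Members were shallow in their non-mitochondrial RNA and rich in mitochondrial RNA at once. Their median non-mitochondrial UMI count was 493.5 in female WT, 473 in female Tg2576, 406 in male WT and 352 in male Tg2576, against 1206, 941, 1223 and 863.5 in the other barcodes. Their median mitochondrial UMI count was 229, 240, 163 and 138.5 in the same order, against 103, 90, 79 and 40. The median number of genes detected was between 286 and 353.5 in members and between 603.5 and 804.5 in the others. Both counts make up the share that chose the members, and they are therefore given without a test.

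The mitochondrial UMIs of the members were almost entirely ribosomal RNA. *mt-Rnr2*, the 16S ribosomal RNA (GRCm38, chromosome MT, 1094 to 2675), held 87.0% of the members' 210492 mitochondrial UMIs and 86.1% of those in the other barcodes. Within libraries it held less in members than in the others in both female pools (86.7% against 88.8% in WT, 87.4% against 89.1% in Tg2576) and more in both male pools (86.9% against 85.1% and 85.1% against 77.4%). *mt-Rnr1*, the 12S ribosomal RNA (chromosome MT, 70 to 1024), held 6.53% in members and 3.80% in the others. Messenger RNAs for respiratory chain subunits held 6.25% in members and 9.83% in the others, led in members by *mt-Nd5* with 2953 UMIs, *mt-Cytb* with 2819, *mt-Nd2* with 2273 and *mt-Nd1* with 2233. *mt-Co2* had 0 UMIs in members, *mt-Co3* 1 and *mt-Atp6* 2, which are listed in the deposited tables at levels far under those of the other mitochondrial messengers. The 15 transfer RNA genes listed held 0.171% together.

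The share of most members rested on ribosomal RNA. The 2 mitochondrial ribosomal RNAs alone exceeded 20% of the UMIs in 645 of the 750 members, and in 30 of the 46 of male Tg2576. With both mitochondrial ribosomal RNAs left out of the numerator and of the total, 5 of the 750 members still exceeded 20%, 104 exceeded 5%, and the members' median fell to 2.06%. The median of the other barcodes was 0.73% by the same measure, and 14 of 4835 exceeded 5%, all of them in the male Tg2576 library. Mitochondrial messengers as a percent of all UMIs other than mitochondrial ribosomal RNA were higher in members than in the others of the same library in 4 of 4 libraries. The values were 2.19% against 0.582% in female WT, 2.46% against 0.724% in female Tg2576, 3.39% against 0.869% in male WT and 5.04% against 1.04% in male Tg2576. Messengers and ribosomal RNA both count in the share that chose the barcodes, so the direction of the messenger level is a description and no separate result. The ratio of *mt-Rnr2* to *mt-Rnr1* UMIs was lower in members, at 11.6 against 16.9, 13.2 against 21.9, 21.6 against 30.7 and 34.1 against 35.8 in the order female WT, female Tg2576, male WT and male Tg2576.

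Cell types were assigned by clustering all 5585 barcodes without mt- genes and without the gene lists compared here, and were named from markers. Astrocyte-like barcodes were 363 of the 750 members (48.4%), followed by 88 endothelial-like (11.7%), 85 neuron-like (11.3%), 60 of an unnamed cluster (8%), 49 olfactory ensheathing-like barcodes led by *Npy*, *Fabp7* and *Frzb* (6.53%) and 36 oligodendrocyte-like barcodes (4.80%). The unnamed cluster was led by *Mrc1*, *Pf4*, *S100a8* and *S100a9*, genes of border macrophages and neutrophils in 1 cluster. Of the endothelial-like members 84 lay in a cluster of 981 barcodes led by the hemoglobin genes *Hbb-bs* and *Hba-a1*. It passed 10 of 10 endothelial markers, but its 10 leading genes held 3 endothelial and 3 erythrocyte markers. With finer clusters, 71 members lay in an unnamed cluster of 601 barcodes led by hemoglobin genes. The remaining members were 19 mural-like, 16 choroid plexus-like, 16 oligodendrocyte precursor-like, 12 microglia-like, 3 neuroblast-like and 3 ependymal-like barcodes.

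Over the 4 libraries together, neurons and olfactory ensheathing-like cells had large shares above the limit and microglia a small one. Of 103 olfactory ensheathing-like barcodes 47.6% (exact interval 37.6 to 57.6) were members, most of them in 1 library. Of 185 neuron-like barcodes 45.9% (38.6 to 53.4) were members, of 1287 astrocyte-like barcodes 28.2% (25.8 to 30.8), of 253 barcodes of the unnamed cluster 23.7% (18.6 to 29.4), of 391 oligodendrocyte-like barcodes 9.21% (6.53 to 12.5), of 1048 endothelial-like barcodes 8.40% (6.79 to 10.2), and of 1751 microglia-like barcodes 0.685% (0.355 to 1.19). Neurons exceeded astrocytes, and astrocytes exceeded endothelial cells, in 4 of 4 libraries, although the male WT library held only 9 neuron-like barcodes. The intervals of neurons and astrocytes overlapped in every library but female WT. In male Tg2576 the unnamed cluster, at 15.2%, and the olfactory ensheathing-like barcodes, at 17.1%, had larger shares than the neurons, at 9.80%, with overlapping intervals. Of the 6 types with at least 30 barcodes in each library, microglia had the smallest share in 4 of 4 libraries. No microglia-like barcode of 320 in male WT or of 500 in male Tg2576 was a member, which allows shares of up to 0.938% and 0.600% when 3 counts are taken as the limit of a count of 0. Microglia-like barcodes thus made up 41.7%, 38.8%, 31.7% and 32.6% of the barcodes at or under the limit but 1.71%, 2.02%, 0% and 0% of the members in the same order of libraries. With finer clusters, part of the unnamed cluster became a shallow microglia-like cluster of 149 barcodes with 34 members, led by *Crybb1*, *Aif1* and *Fcer1g*, and the microglial share rose to 2.42%.

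**Figure D2:**
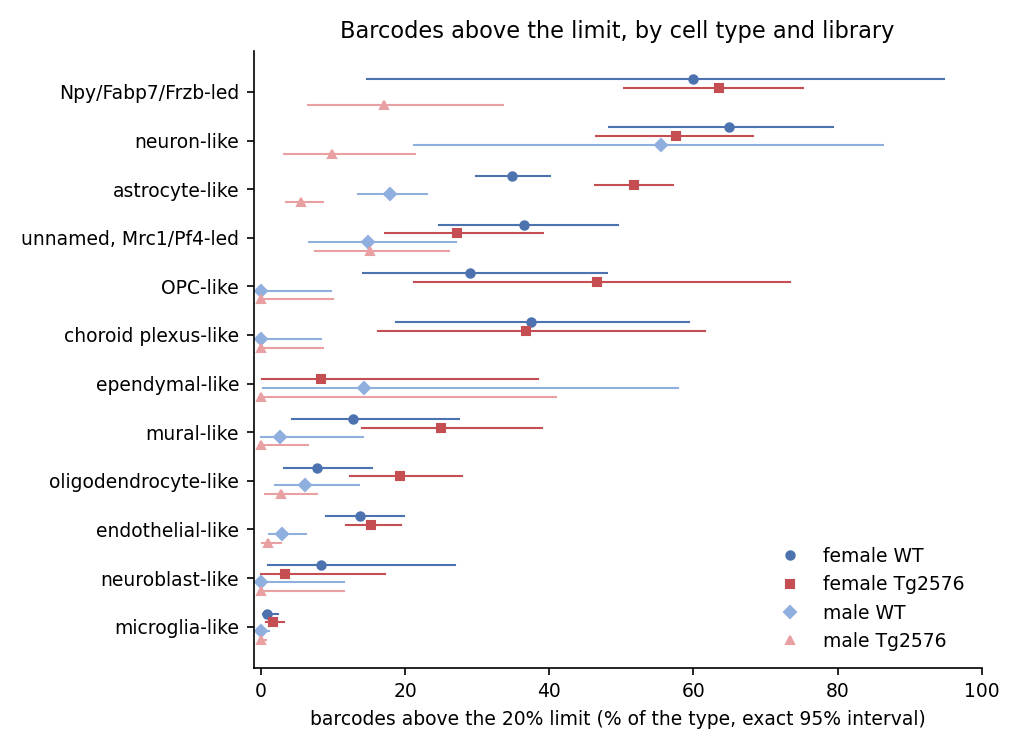
Share of barcodes above the 20% limit by cell type (vertical) and library (colour and marker), with exact 95% intervals on the horizontal axis; a type is drawn in a library that holds at least 5 of its barcodes. In the astrocyte-like type the share runs from 5.64% in male Tg2576 to 51.8% in female Tg2576, while every microglia-like share is under 2%.

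The libraries also differed within types, although their order was not the same in every type. Among astrocyte-like barcodes 34.9% (29.9 to 40.1) were members in female WT, 51.8% (46.3 to 57.2) in female Tg2576, 17.9% (13.4 to 23.0) in male WT and 5.64% (3.43 to 8.66) in male Tg2576, and these 4 intervals did not overlap. Among endothelial-like barcodes the shares were 13.8%, 15.3%, 2.96% and 0.962%, with the 2 female values inside each other's intervals. Among neuron-like barcodes the order of the female libraries was the other way, at 65.0% in WT and 57.6% in Tg2576, with overlapping intervals. The unnamed cluster had 36.5%, 27.1%, 14.8% and 15.2% in the same order of libraries. Choroid plexus-like members numbered 9 of 24 and 7 of 19 in the female libraries, and 0 of 42 and 0 of 41 in the male ones. Oligodendrocyte precursors numbered 9 of 31 and 7 of 15 in the female libraries, and 0 of 36 and 0 of 35 in the male ones. Of the 49 olfactory ensheathing-like members 40 came from female Tg2576, 6 from male Tg2576 and 3 from female WT, and male WT held no barcode of that cluster at all.

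The makeup by type changed along the whole range of the mitochondrial share. Microglia-like barcodes were 60.3% of the 1713 barcodes at 0 to 5%, 32.7% at 5 to 10%, 14.3% at 10 to 15% and 3.67% at 15 to 20%. Astrocyte-like barcodes rose over the same bins from 9.46% to 18.4%, 27.2% and 40%, and stayed between 44.9% and 51.8% above the limit. Neuron-like barcodes were 1.34% at 0 to 5%, 7.69% at 20 to 25%, and 22.8% of the 123 barcodes above 40%. Endothelial-like barcodes had their maximum below the limit, at 30.7% in the bin of 10 to 15%, and were 27.8% at 15 to 20% and 13.7% at 20 to 25%. The bins pool the 4 libraries, and those above the limit come mostly from the female ones.

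**Figure D3:**
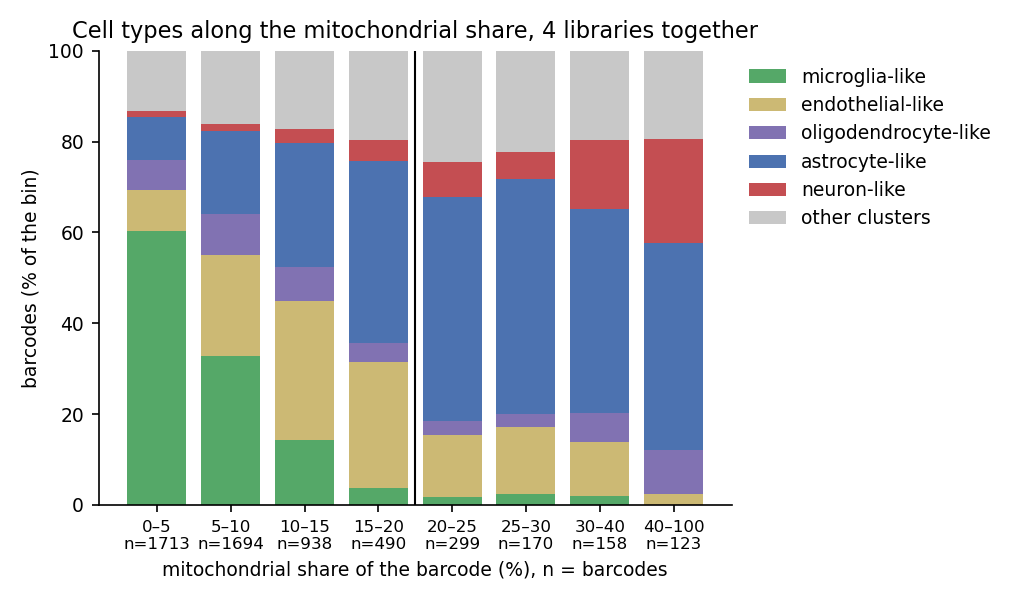
Cell types of the barcodes in bins of mitochondrial share (horizontal axis, percent of UMIs, with the number of barcodes n), as a percent of each bin (vertical axis), over the 4 libraries together. The vertical line marks the 20% limit; the microglia-like part shrinks from 60.3% in the lowest bin to 0% above 40%, and the neuron-like part grows to 22.8%.

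The lower depth of the members held within types over all libraries together, but not to the same degree in each library. Astrocyte-like members had a median of 481 non-mitochondrial UMIs against 931 in other astrocyte-like barcodes, and endothelial-like members 414 against 846.5. Neuron-like members had 478 against 672, with nearly equal values in female WT, at 579 against 599.5. The unnamed cluster of female Tg2576 was also nearly equal, at 390 against 393. Oligodendrocyte-like members had 406 against 1427, the widest gap among these types. In the opposite direction, the median mitochondrial UMI count was 233 against 88 in astrocytes, 148.5 against 87 in endothelial cells, 280 against 71.5 in neurons and 259 against 106 in oligodendrocytes.

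The first comparison of expression asked how the non-mitochondrial RNA of all members differed from that of all other barcodes. UMIs were summed per library and class without mt- genes and compared with edgeR, with the library as a block, so that n was 4 libraries. Of 10311 genes tested, 811 (7.87%) were higher and 962 (9.33%) lower in members at an adjusted p under 0.05, and the median log2 change over all genes was −0.14. Markers of neurons, astrocytes and olfactory ensheathing cells (3 of 4 tested) were among the genes that rose, and markers of microglia, endothelial cells and oligodendrocytes as well as immediate early genes among those that fell. The shares of the cell types given above moved with them.

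Among called genes with at least 50 UMIs in both classes, the 10 largest increases were all genes known from neurons and synapses. *Erc2*, a scaffold of the presynaptic active zone, stood in members at 284, 214, 149 and 52.6 CPM (counts per 1000000 non-mitochondrial UMIs) in the order female WT, female Tg2576, male WT and male Tg2576, against 10.4, 32.6, 5.86 and 11.4 CPM in the others. Members were higher in 4 of 4 libraries, and the log2 change was 3.60 ± 0.37 (SE, adjusted p = 2.9e-19). *Syt1*, the calcium sensor of synaptic vesicles, changed by 2.96 ± 0.31 (adjusted p = 2.5e-18), and *Scn2a*, a voltage-gated sodium channel, by 3.45 ± 0.43 (adjusted p = 2.7e-13). The others were *Grin2b* and *Gria1*, which encode glutamate receptor subunits, *Pclo* and *Rims2* of the active zone, *Camk2b*, *Plppr4* and the neuronal noncoding RNA *Snhg11*, each at up to 2.75. Of the neuron markers 8 of 11 tested rose and none fell, and of the astrocyte markers 12 of 12 rose, with medians of 2.20 and 1.57.

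By the same rule the 10 largest decreases were mostly microglial and immediate early genes. *Cx3cr1*, the fractalkine receptor of microglia, stood at 184, 229, 99.3 and 684 CPM in members against 2197, 2017, 1758 and 1653 CPM in the others. Members were lower in 4 of 4 libraries, with a log2 change of −3.15 ± 0.34 (adjusted p = 1.8e-17). *P2ry12*, the purinergic receptor of resting microglia, changed by −2.94 ± 0.33 and *Csf1r*, the receptor microglia need to survive, by −2.84 ± 0.33. All 12 microglia markers fell, with a median of −2.76, as did 10 of 10 endothelial markers with a median of −1.32 and 9 of 12 oligodendrocyte markers with a median of −1.61. *Atf3*, a stress-induced transcription factor, was among the 10 with −3.87 ± 0.36 (adjusted p = 1.4e-22), from 0 UMIs in the male WT members and 101, 116 and 158 CPM in the other 3 against 1148 to 1774 CPM in the others. *Jun*, a subunit of the AP-1 transcription factor, stood at 889, 762, 571 and 894 CPM in members against 5057, 4059, 5208 and 5459 CPM.

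The gene groups stand beside all 10311 genes, of which 9.33% fell and 7.87% rose, with a median log2 change of −0.14. Their counts were not tested against these shares. Of 18 immediate early genes tested 17 fell and none rose, with a median log2 change of −2.58. Of 14 cytokine and NF-kB feedback genes 11 fell, with a median of −2.97, among them *Ccl4* at −4.16 ± 0.41 and *Nfkbia* at −2.42 ± 0.32. Lysosomal protein genes, many of them highly expressed by microglia, fell in 8 of 15 cases (*Ctss* −2.21 ± 0.32), cytoskeletal and thymosin genes in 7 of 13 (*Tmsb4x* −1.74 ± 0.32, *Actb* −1.40 ± 0.32), ferritin and iron genes in 4 of 6, and heat shock genes in 4 of 12. Genes of p53 and apoptosis fell in 4 of 11 cases (*Bax*, *Cdkn1a* and *Gadd45b* among them) and those of the integrated stress response in 3 of 7, and none of either list rose. With scaling by totals 1 gene of the integrated stress response rose. Cytosolic ribosomal protein genes fell in 19 of 80 cases with a median of −0.68. Several of these counts rested on single libraries. Without female WT, 4 ribosomal protein genes, 1 gene of p53 and apoptosis, 1 of the integrated stress response and 2 of ferritin and iron fell, and the ribosomal protein genes that fell numbered 9 without female Tg2576 and 12 without male WT. Glycolysis genes rose in 5 of 16 cases, led by the neuronal enolase *Eno2* at 2.19 ± 0.48, and the noncoding RNAs rose in 6 of 12.

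Hardly any nuclear gene for mitochondria was called. Of 83 nuclear-encoded respiratory chain genes tested, none passed the test in either direction, and their median log2 change was 0.12. With scaling by totals in place of TMM 3 of them passed, all higher. Their summed level differed between libraries, with log2 ratios of members over others of 0.46 (exact interval 0.40 to 0.52) in female WT, 0.21 (0.16 to 0.26) in female Tg2576, 0.06 (−0.06 to 0.17) in male WT and −0.25 (−0.43 to −0.08) in male Tg2576. Of 76 mitochondrial ribosomal protein genes none passed, with a median of −0.11. *Hmox1* alone of 17 mitochondrial quality control genes passed, lower in members, with 1 UMI in all members. *Ppargc1a*, the coactivator that drives mitochondrial biogenesis and is known to be strong in neurons and astrocytes, was the only one of 8 genes of mitochondrial transcription and RNA processing to pass, at 142, 167, 199 and 105 CPM in members against 38.0, 29.8, 31.9 and 39.5 CPM (2.15 ± 0.34, adjusted p = 2.6e-08).

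Few genes were called once members were compared with barcodes matched on type and depth. Members were paired, from the deepest to the shallowest, with the nearest unused barcode of the same library and type in non-mitochondrial UMIs. This gave 694 pairs for the 750 members, since some types ran out of partners, and the members left unpaired were the shallowest of their type and library. In female Tg2576, 176 astrocyte-like members met 164 possible partners and 49 neuron-like members met 36, so every partner was used there and none was chosen by depth. Depth stayed unequal in female Tg2576, where the 355 paired members held 261306 non-mitochondrial UMIs and their partners 328584, while the sums were 164353 and 172641 in female WT, 39992 and 41769 in male WT, and 19012 and 18994 in male Tg2576. Of 2229 genes tested 7 (0.314%) were called, all of them higher in members, and 648 of the 1773 genes called over all barcodes were among the genes tested, of which 5 were called again. The rest of the 1773 were not tested there. The 7 genes were *Gm42418* (1.05 ± 0.15, adjusted p = 1.3e-06), *Map1b* (1.33 ± 0.24), *Ttr* (0.76 ± 0.17), *Gm28438* (1.34 ± 0.31), *Igfbp5* (1.02 ± 0.25), *Rbm25* (0.72 ± 0.18) and *Erc2* (1.24 ± 0.32). All but *Ttr* were higher in 4 of 4 libraries. Of the changed neuronal and glial genes named by the rule, *Snhg11* stood at −0.25, *Meg3* at −0.36 and *Aldoc* at −0.42 in this fit, none past the threshold.

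The second comparison asked what differed between members and other barcodes of the same cell type. Astrocytes, the glia that clear glutamate and couple blood vessels to neurons, were the one named type with at least 10 barcodes of both classes in 3 or more libraries, and had them in all 4. Astrocyte-like members numbered 121, 176, 47 and 19 in female WT, female Tg2576, male WT and male Tg2576, and the other astrocyte-like barcodes 226, 164, 216 and 318. The 12 astrocyte markers summed to 57778, 52459, 62800 and 45403 CPM in members and to 55372, 48611, 48841 and 45751 CPM in the others. Markers were kept in the clustering and named the clusters, so these sums describe the label and do not test it. A larger cluster led by *Cldn10*, *Aqp4* and *Pla2g7* held 294 of the 363 members and 880 of the 924 others, and a small cluster led by *Utp14b*, *2900022M07Rik* and *Grin2c* held the remaining 69 and 44. The small cluster was named from 7 of the 12 markers, with 0 of them among its 10 leading genes.

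Astrocyte-like members differed from other astrocytes in few genes. Of 2831 genes tested, 4 (0.141%) were higher and 0 (0%) lower in members at an adjusted p under 0.05, against a median log2 change of −0.06 over all genes. At an unadjusted p under 0.05 there were 206 genes, and DESeq2 called 1 gene. Only 3 of the 673 genes that differed over all barcodes and could be tested here were called.

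*Gm42418*, a gene that lies over a copy of 18S ribosomal RNA, carried the clearest difference. It stood at 17480 CPM in members against 10244 CPM in the other astrocytes of female WT, at 11369 against 6628 in female Tg2576, at 5941 against 2036 in male WT and at 4390 against 1572 in male Tg2576. Members were higher in 4 of 4 libraries by log2 ratios of 0.77, 0.78, 1.55 and 1.48, and the fitted change was 1.02 ± 0.21 (adjusted p = 0.0026). The level of the gene differed more between libraries than between classes. *Rn18s-rs5*, annotated as a pseudogene of 18S ribosomal RNA on chromosome 17 (GRCm38, 39846354 to 39848202), changed by 1.36 ± 0.33 (adjusted p = 0.030), from 82 UMIs in members and 102 in the others. RefSeq gives *Gm42418* as a synonym of *Rn18s-rs5*, so that the counting may have split reads of 1 locus between the names, and the 2 results are not independent.

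The other 2 genes were sparse. *Igfbp5*, a secreted binding protein of insulin-like growth factors (chromosome 1, 72858065 to 72874865), stood at 244, 623, 343 and 251 CPM in members against 167, 168, 121 and 162 CPM in the others, on 107 and 156 UMIs (1.26 ± 0.28, adjusted p = 0.010). *Utrn*, which encodes the cytoskeletal anchor utrophin (chromosome 10, 12382187 to 12869888), stood at 163, 424, 267 and 251 CPM against 131, 96.0, 69.7 and 86.1 CPM, on 74 and 97 UMIs (1.40 ± 0.35, adjusted p = 0.038). Both were higher in 4 of 4 libraries, with the lowest ratio of *Utrn* in female WT at 0.32. None of the 4 genes was called without the female Tg2576 library or without the male WT library, where 0 genes were called in each case, and *Gm42418* was not called without the female WT library either. With doublets left out *Utrn* was not called.

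Other genes named by size did not pass the test. *Ubb*, which encodes polyubiquitin, stood at 233, 424, 419 and 125 CPM in members against 461, 582, 818 and 983 CPM in the others, lower in 4 of 4 libraries (−0.89 ± 0.24, adjusted p = 0.16), and was called lower with a limit of 10% (−0.76) and against barcodes of at most 10% (−1.31). The sialyltransferase gene *St6galnac5* had −0.89 ± 0.28, *Rab2a* −0.80 ± 0.28, *Il18* −0.75 ± 0.26, the metalloproteinase gene *Mmp14* 1.16 ± 0.34 and *Wapl* 1.11 ± 0.34, with adjusted p between 0.27 and 0.41. Of the genes fixed for reporting in every fit, *Malat1* had −0.02 ± 0.24, *Apoe* −0.12 ± 0.21, *Actb* −0.19 ± 0.20, *Cst3* −0.33 ± 0.21 and *Hsp90ab1* 0.09 ± 0.20.

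Gene groups that fell over all barcodes showed smaller values within astrocytes. Of 6 immediate early genes tested none passed, with a median of −0.70, among them *Jun* at −0.80 ± 0.27 (adjusted p = 0.395). This depended on where the classes were divided. With a limit of 10%, *Jun* (−1.54 ± 0.21, adjusted p = 7.6e-07), *Egr1* (−1.98), *Junb* (−2.68), *Atf3* (−2.06), *Jund* (−1.24), *Fos* (−1.13) and *Btg2* (−1.60) were lower in the upper class, as were the microglial genes *Cx3cr1* (−1.70), *C1qb* (−1.68) and *Ctss* (−1.09). Against barcodes of at most 10%, *Jun* (−1.49) and *Fos* (−1.42) were lower in members. Their sum was 919 CPM in members against 950 in the others in female WT, 839 against 2171 in female Tg2576, 1295 against 2197 in male WT and 2132 against 2022 in male Tg2576, with exact intervals of the ratio under 0 in female Tg2576 and male WT and around 0 in the other two. Microglia markers in astrocyte-like barcodes followed the same libraries: they summed to 686 against 566 CPM, 399 against 1332, 647 against 1390 and 1129 against 1254, and 6 of 12 could be tested, with a median of −0.81. The part of this microglial RNA in the immediate early genes was not tested. Macrophage markers held 0 to 2 UMIs per library in the members. None of 40 cytosolic ribosomal protein genes (median −0.28), 75 respiratory chain genes (−0.20), 20 mitochondrial ribosomal protein genes (−0.29), 12 glycolysis genes (−0.24), 12 lysosomal genes (−0.23) and 7 mitochondrial quality control genes (−0.13) passed. *Ppargc1a* had 0.78 ± 0.31 (adjusted p = 0.51), and was called with a limit of 10% (1.06).

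Types with fewer members gave 10 further pairs of classes with at least 10 barcodes each, 2 each for endothelial-like and neuron-like barcodes, 3 for the unnamed cluster, and 1 each for oligodendrocyte-like, mural-like and olfactory ensheathing-like barcodes. Apart from the unnamed cluster these types had under 3 such libraries and were not fitted, and ratios are given with exact 95% intervals for counting error. *Gm42418* was higher in members in 9 of these 10 pairs with an interval above 0. It stood at 12588 against 4479 CPM in endothelial cells of female Tg2576 (log2 ratio 1.49, 1.33 to 1.65), at 5718 against 2213 in its neurons (1.37, 1.02 to 1.73) and at 3058 against 948 in the unnamed cluster of male Tg2576 (1.69, 0.50 to 2.75). Doublets were kept here, and 4 of the 10 members in that last pair remained without them. The exception was neurons of female WT, at 4695 against 4694 CPM, with an interval of −0.49 to 0.49. These barcodes were not part of the astrocyte fit, and they repeat the direction in other cells of 3 of the same 4 libraries. Outside the female libraries this rests on the unnamed cluster of male Tg2576 alone, and male WT gave no pair. The sum of the immediate early genes was lower in members with an interval under 0 in 7 of the 10 pairs, and higher in the mural-like pair (0.40, 0.13 to 0.67).

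**Figure D4:**
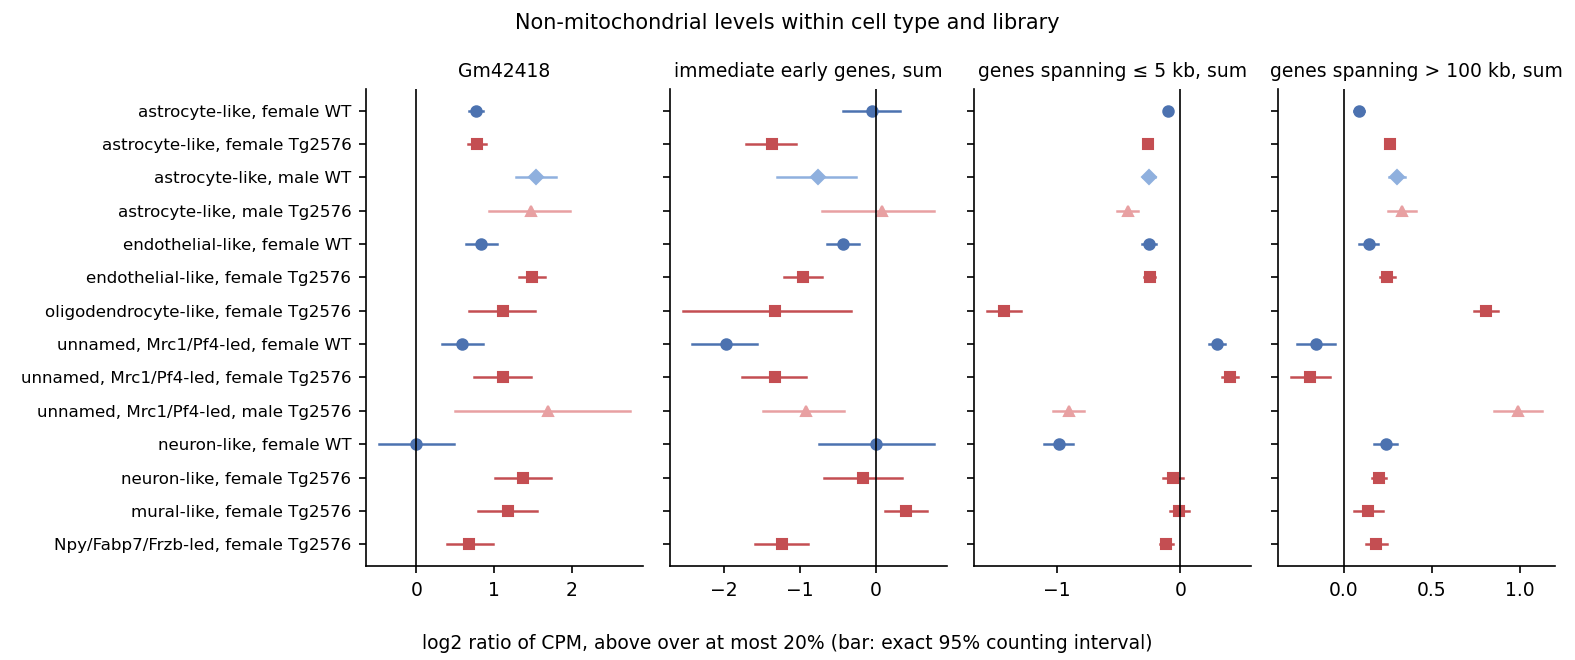
Log2 ratio of the CPM of members over that of the other barcodes of the same type and library (horizontal axis) for the 14 pairs of classes with at least 10 barcodes each (rows), with exact 95% counting intervals. The panels show *Gm42418*, the summed immediate early genes, and the summed genes spanning at most 5 kb and over 100 kb; *Gm42418* lies above 0 in 13 of 14 rows with its whole interval.

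Oligodendrocyte-like members formed a distinct group in female Tg2576. The 12 oligodendrocyte markers summed to 46301 CPM in the 21 members against 129870 CPM in the 88 other barcodes (log2 ratio −1.49, −1.64 to −1.34). *Malat1*, a noncoding RNA retained in the nucleus, stood at 109056 against 48740 CPM (1.16, 1.06 to 1.26), and *Neat1*, another nuclear RNA, at 3571 against 1133 CPM (1.66, 1.03 to 2.24). Cytosolic ribosomal protein genes summed to 2168 against 10946 CPM (−2.34, −3.12 to −1.65) and respiratory chain genes to 3954 against 13541 CPM (−1.78, −2.34 to −1.27). With finer clusters, 31 of the 36 oligodendrocyte-like members of all libraries fell into a cluster of 50 barcodes led by *Sytl2*, *Aspa* and *Nfasc*, and 5 remained among 341 barcodes led by *Ermn*, *Cldn11* and *Mag*. These genes and this library were singled out after their values were seen.

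The unnamed cluster could be fitted over 3 libraries, with 23, 19 and 10 members against 40, 51 and 56 other barcodes in female WT, female Tg2576 and male Tg2576. Of the 10 male Tg2576 members 4 remained with doublets left out, where the cluster could not be fitted. Of 266 genes tested 4 (1.5%) were higher and 6 (2.26%) lower in members, against a median log2 change of 0.03 over all genes. *Sparcl1*, a secreted matrix protein known from astrocytes, stood at 2301, 1675 and 5505 CPM in members against 228, 981 and 503 CPM in the others (2.46 ± 0.63, adjusted p = 0.0060). The astrocyte gene *Slc1a2*, a glutamate transporter, was also higher, at 2.11 ± 0.65. Lower were *Atf3* (−3.23 ± 0.86, with 3 UMIs in members), *Neat1* (−3.01 ± 0.96, with 2), *Mrc1*, which leads the cluster and is therefore no result, with 1 UMI against 159, and *Ccl12*, *Il1b* and *Ccl2*, with 0 UMIs in members against 97, 93 and 92. All but *Sparcl1* were named after their values were seen. *Gm42418* was not called here (1.05 ± 0.64, adjusted p = 0.73). No gene was called without female WT, without female Tg2576 or after matching on depth, where 79 genes were tested, and DESeq2 called 4 genes. Finer clusters divided these barcodes into a microglia-like and a *Mrc1*-led cluster, and the part of this division in the calls was not tested.

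*Malat1* had no common direction elsewhere. Its ratio was −0.12, 0.08, −0.29 and 0.71 in the astrocytes of female WT, female Tg2576, male WT and male Tg2576, and 0.84 and −0.76 in the neurons of female WT and female Tg2576. Members of the unnamed cluster also differed between libraries. Its macrophage markers stood at 657 against 5186 CPM in female WT, at 239 against 4524 CPM in female Tg2576 and at 0 against 2547 CPM in male Tg2576, while its microglia markers stood at 31332 against 27006, 31228 against 24772 and 13456 against 29378 CPM. In its male Tg2576 members the oligodendrocyte markers reached 19266 against 1747 CPM, so that these 10 barcodes together carried RNA of several types. Of the 10, 4 remained with doublets left out.

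The change of a gene was related to its length on the chromosome. Genes were divided by the span of their RefSeq gene model, which was known for 96.1% of the genes tested in astrocytes. The median log2 change in astrocytes was −0.25 for 434 genes of at most 5 kb, −0.19 for 714 genes of 5 to 20 kb, −0.02 for 699 genes of 20 to 50 kb, 0.06 for 426 genes of 50 to 100 kb and 0.19 for 449 genes over 100 kb. Of the shortest genes 29.0% had a positive change and of the longest 68.8%. Over the pairs nearest in depth the medians ran from −0.20 to 0.22. In every library, genes over 100 kb took a larger part of the non-mitochondrial UMIs of astrocyte-like members than of the other astrocytes, at 16.8% against 15.9% in female WT, 17.4% against 14.5% in female Tg2576, 17.0% against 13.8% in male WT and 16.2% against 12.9% in male Tg2576. Genes of at most 5 kb took a smaller part, at 13.0% against 13.9%, 12.9% against 15.5%, 14.2% against 16.9% and 13.3% against 17.9%. Outside astrocytes long genes were higher in 8 of 10 pairs, and lower in the unnamed cluster of both female libraries. The division by span was chosen after values had been seen, and genes are not independent replicates, so no p-value is given.

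**Figure D5:**
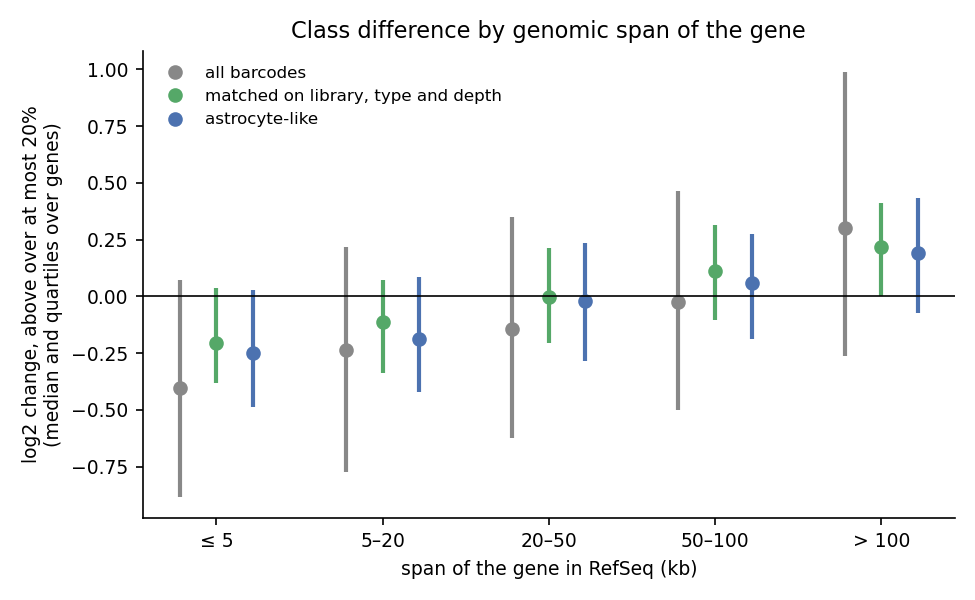
Log2 change between members and other barcodes (vertical axis, medians as points and quartiles as bars over genes) by the span of the gene in RefSeq (horizontal axis, kb), over all barcodes, over pairs matched on library, type and depth, and within astrocyte-like barcodes. All 3 rows of medians rise from the shortest to the longest genes, in astrocytes from −0.25 to 0.19.

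The last comparison asked whether the difference between the classes depended on genotype or sex. No gene (0% of 10311) passed for genotype over all barcodes in edgeR, with 185 at an unadjusted p under 0.05 and 0 called by DESeq2, and no gene of 2831 passed within astrocytes, with 80 at an unadjusted p under 0.05 and 0 by DESeq2. These fits have 2 residual degrees of freedom. For sex, 8 genes (0.0776% of 10311) passed over all barcodes and none in astrocytes, where 123 had an unadjusted p under 0.05 and DESeq2 called 0. *Ttr*, the thyroid hormone carrier made by the choroid plexus, stood at 28763 and 11937 CPM in the members of female WT and female Tg2576 against 3599 and 2307 CPM in the others, and at 919 and 2314 CPM in the members of male WT and male Tg2576 against 14485 and 10938 CPM. The male minus female difference was −6.36 ± 0.68 (adjusted p = 8.5e-17). *Enpp2*, *Igf2*, *Prlr*, *Kl*, *Sostdc1* and *1500015O10Rik*, which lead or mark the choroid plexus-like cluster, had the same direction, as did *Vtn*, a gene of mural cells. Members of the male libraries held 0 choroid plexus-like barcodes, as given above, and with DESeq2 2 genes passed.

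The transgene served as a check of the labels among members. *App* in astrocyte-like members stood at 221 CPM in female WT and 3073 CPM in female Tg2576 (log2 ratio 3.80, exact interval 3.13 to 4.55), and at 152 CPM in male WT and 1631 CPM in male Tg2576 (3.42, 1.73 to 5.49). In the other astrocyte-like barcodes the ratios were 3.26 (2.89 to 3.66) and 3.79 (3.28 to 4.36), and the intervals of both classes overlapped in each sex. Over all types the ratio in female members was 1.72 (1.45 to 2.00) and in female others 0.84 (0.74 to 0.93). In the males it was 0.45 (−0.39 to 1.27) in members, an interval that includes 0, and 0.38 (0.30 to 0.47) in the others. Female members held a larger part of astrocytes than the others, and the part of the type mix in these ratios was not tested. Among female neuron-like barcodes the ratio was 2.14 (1.15 to 3.32) in members and 0.58 (−0.22 to 1.46) in the others. *Prnp*, the prion protein gene, stood at 2570 and 4543 CPM in astrocyte-like members of female WT and female Tg2576 (0.82, 0.59 to 1.05), and at 2323 and 3136 CPM in those of male WT and male Tg2576 (0.43, −0.30 to 1.13).

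Barcodes with fewer than 200 genes stood beside the members as the shallow end of each library. They numbered 1722, 1353, 1917 and 1422 in female WT, female Tg2576, male WT and male Tg2576, and 41.3%, 42.6%, 36.7% and 27.7% of their UMIs were mitochondrial, of which *mt-Rnr2* made 88.3% to 89.1%. *Gm42418* stood at 14213, 9747, 3798 and 2374 CPM in them, against 13928, 9267, 5240 and 3734 CPM in all members and 6739, 4053, 1540 and 1043 CPM in all barcodes of at most 20%. In both female libraries the level of the shallow barcodes was slightly above that of the members, and in the male libraries it lay between the classes. Their microglia markers summed to 9309, 8693, 9699 and 11043 CPM, above the 2962, 1933, 3427 and 3051 CPM of all members. Whether RNA outside cells takes part in the members' profile was not tested.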

How the data were processed

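Cortices of 9 mice per pool were dissociated and sequenced by Drop-seq, and the authors deposited a table of UMI counts per gene and barcode for each of 4 libraries (mm10 and Seurat 3.1.4 per the labels' processing notes). Deposited totals were 1926857 to 2294296 UMIs. Barcodes with 200 to 7000 genes were kept, and the authors' 5% mitochondrial limit was not applied. The members and gene lists were chosen with earlier results of these data known. Clustering used Seurat 5.3.0 and sctransform 0.4.2 in R 4.3.3 (2500 variable genes, of which 2393 remained without listed and mt- genes, 19 components, resolution 0.5), and clusters were named from markers. Doublets were called with Scrublet in scanpy 1.11.5 (103 of 5585) and kept. Summed counts without mt- genes were tested with edgeR 4.0.16 (quasi-likelihood, TMM, library as block, Benjamini-Hochberg; within types where 3 or more libraries held 10 barcodes of each class) and as an alternative with DESeq2 1.42.0. Interval bounds are exact and cover counting error only. Named genes are, in each fit, the 10 largest changes in each direction among called genes. These had the same sign in every library and at least 50 UMIs in each class. Where fewer than 5 passed, the 5 largest changes are given as values. Added to these are a fixed set of genes and, of each list, the genes with the most UMIs or the largest change. Spans, coordinates and synonyms came from RefSeq (GRCm38.p6). Pools were sequenced once. In the main fits p-values thus measure how the class difference varied between libraries, not between mice, with variance estimates shared across genes. Results for some genes are not reported here.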

Additional observations from a re-analysis of the deposited data

Results flagged for a closer look

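The difference between members and other barcodes differed between the female and the male pools in 8 genes by a test of the interaction in edgeR. For *Ttr* the male minus female difference was −6.36 on the log2 scale (SE 0.68, adjusted p = 8.53e-17), with members higher in 2 of 2 female libraries and lower in 2 of 2 male libraries.

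The share of members was higher in Tg2576 than in WT in the female pools, by 5.81 percentage points, and lower in the male pools, by −3.83 percentage points. With 1 library for each combination this difference was not tested.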

How the results depend on the processing

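Over all barcodes, 1773 genes were called, and 1048 with at least 500 genes per barcode, 594 with a limit of 30% and 7 after matching on library, type and depth, where fewer genes were tested. Leaving out 1 library gave 754 (without female Tg2576) to 2043 (without male Tg2576), and 853 without female WT. In astrocytes 4 genes were called, and 29 with a limit of 10%, 8 with a limit of 30%, 15 against barcodes of at most 10%, 1 with DESeq2, 0 without the filter on low counts, and 0 (without female Tg2576 or male WT) to 7 (without male Tg2576) with 1 library left out. *Gm42418* kept its direction in 16 of 16 alternatives and was called in 11. DESeq2 called 2 genes for sex. In the unnamed cluster 10 genes were called, and 4 with DESeq2, 4 without the filter, 1 with a limit of 10%, 0 against barcodes of at most 10%, 0 after matching, and 0 (without female WT or female Tg2576) to 2 (without male Tg2576) with 1 library left out. The larger astrocyte-like cluster alone, an alternative chosen after seeing the data, gave 3 genes.

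After matching, the log2 change over all barcodes turned for *Snhg11* (−0.25), *Meg3* (−0.36), *Apoe* (−0.057), *Aldoc* (−0.42), *Prnp* (−0.00027), *Btg2* (0.050), *Nfkbia* (0.021), *Atf4* (0.22), *Ctss* (0.13), *Rps9* (0.058) and *Ttr* (0.76). *Ttr* also turned with a limit of 10% (1.88) and lay between −1.96 (without female WT) and 1.38 (without male WT) with 1 library left out, at 1.25 without male Tg2576, and *Malat1* turned in astrocytes with a limit of 10% (0.30). The cause was not tested.

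With limits of 10% and 30%, the share above was 9.37% and 0.171% of microglia, 63.2% and 9.87% of astrocytes, 48.9% and 2.10% of endothelial cells, 32.5% and 5.63% of oligodendrocytes, and 74.1% and 28.1% of neurons. With at least 500 genes it was 0.279%, 14.8%, 3.44%, 1.89% and 33.8% in the same order. Types from marker UMIs gave 2.52% for microglia, and finer clusters gave 2.42% for microglia and 3.80% for endothelial cells. The last value leaves out an unnamed cluster of 601 barcodes led by hemoglobin genes, of which 71 were members. The astrocyte fit with at least 500 genes was not run, since 2 libraries held enough barcodes, nor were those of the unnamed cluster with at least 500 genes, a limit of 30% or doublets left out. No paired analysis was possible because each group holds 1 library, and the library stood as a block in every main fit. Depth limits the male Tg2576 values most, with 19012 non-mitochondrial UMIs in its members.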
